A study of Mus musculus with 9 samples.

Results

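The genes that encode the chains of the collagens were examined in valvular interstitial cells (VICs) of the mouse in culture. VICs are the resident fibroblasts of the heart valve leaflets, whose matrix they build and maintain. Every symbol in the deposited table made of Col, a number, the letter a and a further number was taken, which gave 44 of 51810 genes. C57BL/6J mice were the source of the cells, which came from the aortic valve and the mitral valve and were grown in DMEM with 10% fetal bovine serum, insulin, EGF and basic FGF. All 3 groups shared this medium, and each held 3 libraries numbered 1 to 3 in their titles. Control cells received buffer, although another label calls them untreated. LDL cells received low-density lipoprotein and oxLDL cells its oxidised form, both at 50 ug/mL for 24 h. No genetic change is named in the labels, and the age and number of the animals are not given. The labels do not say that the libraries of a group came from separate cultures or animals. The p-values therefore measure only the spread between these libraries, which may be technical.

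A collagen molecule is a triple helix of 3 chains, each built of repeats of glycine and a pair of other residues, and the chains of one molecule are often products of different genes. Fibrillar collagens assemble into the load-bearing fibres of the valve fibrosa. Type IV collagens form the sheet-like network of basement membranes under endothelium. The remaining types coat fibrils, form beaded filaments or short-chain networks, or span the cell membrane. VICs are the main source of collagen in the leaflet, and excess or disordered collagen is a known feature of diseased valves. By this textbook division the 44 genes comprised 11 fibrillar, 9 basement membrane and 24 other collagens.

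All 44 members were found in the GENCODE M21 annotation of mouse build GRCm38, on 15 chromosomes. The lengths of coding exons differed between classes. Among the 11 fibrillar genes, 526 of 627 internal coding exons (83.9%) had a length divisible by 9, the number of bases that encodes 1 glycine repeat. Of those exons 305 (48.6%) were exactly 54 bases long. In the 6 type IV genes 47.2% of 284 internal coding exons were divisible by 9 and 4.23% were 54 bases long. The collagens that coat fibrils, called FACIT collagens, had 55.1% and 26.3%, and the 4 transmembrane collagens 70.7% and 9.33%. The 6 genes of beaded filaments had 54.4% and 8.25%, and the 3 other basement membrane genes, Col7a1, Col15a1 and Col18a1, 54.4% and 5.18%. The 3 short-chain genes had 0 internal coding exons. In the 2 genes left, Col26a1 and Col28a1, 30.2% were divisible by 9. Over 11957 of the genes tested below, 13.8% of 108975 such exons were divisible by 9 and 0.706% were 54 bases long.

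Some members lie head to head. Col4a1 on the minus strand and Col4a2 on the plus strand of chromosome 8, which encode the common chains of type IV collagen, have annotated starts that overlap by 22 bases. The starts of Col4a3 and Col4a4 are 72 bases apart on chromosome 1, and those of Col4a5 and Col4a6 are 1309 bases apart on chromosome X. The start sequences below are RefSeq's, build GRCm38.p6, written 5′ to 3′ on the strand given. The Col4a1 and Col4a2 stretch is shown because both genes begin in it. Col3a1 is shown as the member with the highest mean level, and Col8a1 as a highly expressed member whose start region looks unlike it. Capitals mark matches to TATAAA or GGGCGG on either strand (CCGCCC is GGGCGG read on the opposite strand).
Col4a1 and Col4a2, both starts, chr8:11312805-11312826, plus strand: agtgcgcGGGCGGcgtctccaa
Col3a1, the 250 bases before the start, chr1:45311288-45311537, plus strand: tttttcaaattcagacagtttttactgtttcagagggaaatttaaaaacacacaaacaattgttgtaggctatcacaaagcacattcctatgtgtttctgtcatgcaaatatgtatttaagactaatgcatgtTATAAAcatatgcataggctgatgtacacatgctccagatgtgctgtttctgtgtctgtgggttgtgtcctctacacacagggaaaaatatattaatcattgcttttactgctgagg
Col8a1, the 250 bases before the start, chr16:57754738-57754987, minus strand: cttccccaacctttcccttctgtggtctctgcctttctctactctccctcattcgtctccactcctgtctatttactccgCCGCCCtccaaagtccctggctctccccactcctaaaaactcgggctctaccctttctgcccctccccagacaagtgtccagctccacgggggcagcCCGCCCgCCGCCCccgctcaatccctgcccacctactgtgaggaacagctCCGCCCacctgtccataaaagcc

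Col3a1 had 1 TATAAA match, 117 bases before its start, and no GGGCGG match in these 250 bases. Col8a1 had 4 GGGCGG matches on the opposite strand, beginning 170, 73, 66 and 23 bases before its start. RefSeq windows of 300 bases around the start (250 before to 50 after) were at hand for 35 members, as 38 windows. GGGCGG, searched on both strands, was in 23 of these (60.5%) and in 35.7% of all 32851 windows. CCAAT was in 13 (34.2%) against 37.4% of all windows, and TATAAA in 5 (13.2%) against 13.6%. No motif contains another, TATAAA can overlap its own opposite-strand form, and a window was counted once per motif. A match describes letters and not a bound site.

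Levels are given in TPM, the proportion of a library's transcripts that a gene accounts for once its length is allowed for, so levels of different genes can be compared. TPM keeps no sequencing depth, so the reads behind a value are unknown and no counting interval can be given. Summed over the 44 members, collagen transcripts stood at 7509, 6123 and 6189 TPM in Control libraries 1 to 3. The sums were 6915, 6250 and 5777 TPM with LDL and 6465, 5565 and 6864 TPM with oxLDL. The groups overlapped, with means of 6607 ± 782, 6314 ± 571 and 6298 ± 666 TPM (SD, n = 3). Collagen chains thus made up 0.557 to 0.751% of all transcripts. Fibrillar chains took 69.0 to 75.0% of the collagen total in every library, basement membrane chains 8.82 to 16.2% and the others 13.4 to 17.8%.

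The VIC label was checked against 10 markers of valve interstitial cells or fibroblasts, all of which averaged at least 1 TPM and which summed to 17194 to 20606 TPM per library. S100a4, at a mean of 8708 TPM, and Vim, at 5584 TPM, gave most of that sum. Pdgfra averaged 169 TPM and Postn 95.4 TPM. Markers of other cells were also present. All 8 endothelial markers averaged at least 1 TPM and summed to 127 to 326 TPM, and all 8 macrophage and leukocyte markers did so and summed to 97.5 to 667 TPM. Of 6 smooth muscle markers 4 averaged at least 1 TPM, with Myh11 at 0.50 TPM and Des at 0.461 TPM. The epithelial marker Krt14 was at 0 in all 9 libraries.

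A differential test was run with limma on log2(TPM + 1) for the 13495 genes whose 9 libraries averaged 1 TPM or more. Of the collagen members 29 passed this filter, 9 of 11 fibrillar, 9 of 9 basement membrane and 11 of 24 other chains. Col28a1, with a mean of 1.02 TPM, was the lowest that passed. The 15 that did not were Col8a2 (mean 0.95 TPM), Col11a2 (mean 0.939 TPM), Col13a1, Col17a1, Col22a1, Col9a2, Col6a6, Col20a1, Col24a1, Col10a1, Col6a4, Col25a1, Col6a5, Col26a1 and Col19a1. Their highest single value was 2.56 TPM, for Col11a2 in LDL library 3, and 13 of them averaged under 0.5 TPM. They include Col10a1, the collagen of hypertrophic cartilage, and Col17a1, the hemidesmosomal collagen of skin.

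**Figure D1:**
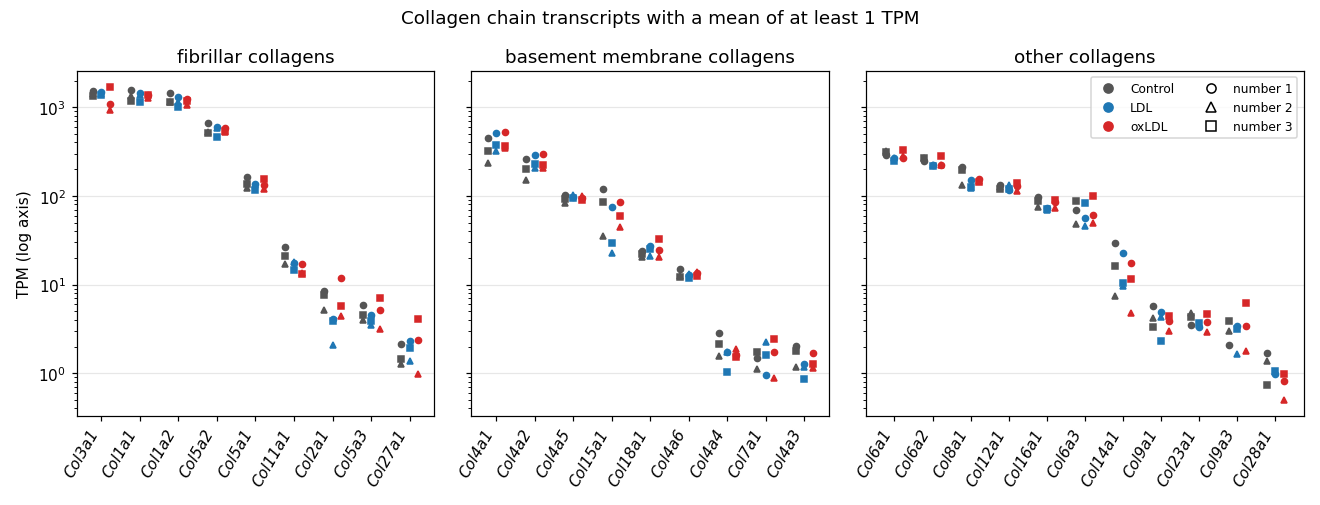
TPM (log axis) of the 29 members averaging 1 TPM or more, by class, 1 point per library; colour gives the treatment and shape the replicate number. Col3a1, Col1a1 and Col1a2 lie between 932 and 1711 TPM in every library, and the 3 treatments overlap for most members.

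The fibrillar chains were the most abundant. Col3a1, the single chain of type III collagen, which gives distensible tissue its fine fibres, had the highest mean and ranked 120 among all genes. Col1a1 and Col1a2, the chains of the main fibre-forming collagen of tendon, bone and valve, ranked 122 and 142. These 3 genes together supplied 60.7% of the collagen total.

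Col1a1 stood at 1584, 1346 and 1161 TPM in Control libraries 1 to 3, at 1448, 1365 and 1157 TPM with LDL and at 1383, 1260.3 and 1362 TPM with oxLDL. Its 3 groups overlapped. Col1a2 was at 1452, 1155 and 1155 TPM in Control, at 1296, 1137 and 994 TPM with LDL and at 1234, 1068 and 1163 TPM with oxLDL. These groups overlapped too, and for both genes the libraries numbered 1 were the 3 highest of the 9. Col3a1 was at 1534, 1409.8 and 1352 TPM in Control, at 1469.6, 1427 and 1359 TPM with LDL and at 1092, 932 and 1711 TPM with oxLDL. The oxLDL libraries held both the lowest values and the highest value of Col3a1. Col5a2, a chain of type V collagen, which nucleates type I fibrils, was at 659, 531 and 510.4 TPM in Control, at 593, 585 and 465 TPM with LDL and at 582, 525 and 539.9 TPM with oxLDL. Its partner Col5a1 averaged 135 TPM. The groups overlapped for both.

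Lower in the class were Col11a1, a chain of type XI collagen that sets fibril diameter in cartilage and elsewhere (mean 17.6 TPM), and Col2a1, the cartilage collagen (mean 5.94 TPM). Col5a3, the third type V chain, averaged 4.63 TPM, and Col27a1, a fibrillar collagen of cartilage and developing tissue, 1.99 TPM. Col11a1 was at 26.8, 16.9 and 20.8 TPM in Control, at 17.6, 18.0 and 14.6 TPM with LDL and at 16.95, 13.4 and 13.2 TPM with oxLDL. Control and oxLDL overlapped by a small margin. Col2a1 was at 8.41, 5.22 and 7.62 TPM in Control, at 4.14, 2.10 and 3.92 TPM with LDL and at 11.9, 4.37 and 5.79 TPM with oxLDL. All 3 LDL values of Col2a1 lay below the lowest Control value and below the lowest oxLDL value. Of 7 chondrocyte markers 3 averaged at least 1 TPM, among them Sox9 at 47.3 TPM, and the 7 summed to 75.6 to 86.8 TPM in Control, 60.6 to 77.9 TPM with LDL and 62.6 to 88.2 TPM with oxLDL. Comp averaged 23.5 TPM and Hapln1 3.34 TPM. Acan, which encodes the main cartilage proteoglycan, averaged 0.966 TPM, Matn3 0.364 TPM, Cnmd 0.181 TPM and Matn1 0.0022 TPM. None of the 7 was at 0 in all libraries, although Matn1 did not exceed 0.02 TPM in any. Whether chondrocytes were present, and any part of theirs in the Col2a1 values, was not tested.

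Among the basement membrane chains Col4a1 and Col4a2 led. Col4a1 was at 451, 232 and 324 TPM in Control libraries 1 to 3, at 513, 324 and 379 TPM with LDL and at 528, 347 and 367 TPM with oxLDL. Col4a2 was at 261, 152 and 199 TPM in Control, at 291, 205 and 229 TPM with LDL and at 295, 205 and 221 TPM with oxLDL. The library numbered 1 was the highest of each treatment for both genes, and LDL and oxLDL exceeded Control at every number. Col4a5, a chain of the type IV network of kidney and other specialised membranes, varied little, at 101, 83.5 and 91.5 TPM in Control, at 97.3, 101 and 94.1 TPM with LDL and at 94.6, 101 and 90.6 TPM with oxLDL. Col15a1, whose product lies between the basement membrane and the stroma, was at 120.4, 35.6 and 84.8 TPM in Control, at 75.3, 22.8 and 29.7 TPM with LDL and at 85.8, 44.4 and 59.8 TPM with oxLDL. Its groups overlapped, but LDL was below Control at every number.

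Further basement membrane members were Col18a1, the precursor of endostatin, at a mean of 24.1 TPM and Col4a6 at 13.04 TPM. Col4a4 averaged 1.78 TPM, Col4a3 1.37 TPM and Col7a1, the anchoring-fibril collagen of skin, 1.58 TPM.

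The other class was headed by type VI collagen, which forms beaded filaments around cells. Col6a1 was at 292, 318 and 315 TPM in Control, at 264, 266 and 250.1 TPM with LDL and at 268, 279 and 330.4 TPM with oxLDL. The LDL values lay below all Control values and below all oxLDL values. Col6a2 was at 248, 268 and 265 TPM in Control, at 223, 223 and 216 TPM with LDL and at 222, 224 and 280.3 TPM with oxLDL. LDL lay below Control without overlap and overlapped oxLDL. Col8a1, a short-chain collagen of vessel and valve matrix, was at 209, 131 and 197 TPM in Control, at 152, 122 and 125 TPM with LDL and at 156, 146 and 144 TPM with oxLDL, with overlap throughout.

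Of the FACIT collagens Col12a1 was the highest, at 134, 127 and 119.8 TPM in Control, at 117, 134 and 119.8 TPM with LDL and at 130.5, 115 and 139 TPM with oxLDL. No group of Col12a1 stood apart. Col14a1, which binds the surface of type I fibrils, was at 29.3, 7.46 and 16.1 TPM in Control, at 22.6, 9.60 and 10.4 TPM with LDL and at 17.5, 4.79 and 11.5 TPM with oxLDL. Its libraries numbered 2 were the lowest 3 of the 9 and those numbered 1 the highest 3. Col16a1 averaged 80.2 TPM, Col6a3, the largest type VI chain, 66.8 TPM, and Col9a1, Col23a1 and Col9a3 between 3.18 and 4.01 TPM.

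LDL was compared with Control to ask whether the native lipoprotein altered collagen transcripts. No collagen member passed an adjusted p of 0.05, in limma with Benjamini-Hochberg adjustment over all genes tested, where 0.333% of all genes passed. With the replicate number as a block the member count was again 0, and 0.852% of all genes passed. At an unadjusted p under 0.05 there were 5 of 29 members, Col16a1, Col2a1, Col6a1, Col6a2 and Col8a1, against 6.65% of all genes. With the block there were 9, with Col11a1, Col15a1, Col4a1 and Col4a2 added, against 13.1%. In this bulk RNA, fewer cells of a type and less RNA per cell cannot be told apart.

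The mean was lower with LDL in 23 of 29 members, 8 of 9 fibrillar, 4 of 9 basement membrane and 11 of 11 other chains, and in 50.5% of all genes, with 49.4% higher. The median difference on the log2(TPM + 1) scale was -0.14, against a median of -0.0018 over all genes, and by class it was -0.11, 0.07 and -0.20. This median rested in part on single libraries: it was -0.017 without Control library 1 and -0.049 without LDL library 3. Without Control library 1 the difference in the collagen sum was 158 TPM in place of -293 TPM, and Col12a1, Col14a1, Col1a1, Col3a1 and Col5a2 turned in direction. Col16a1, Col2a1, Col6a1 and Col6a2 lay below Control without overlap, 4 of 29 members against 5.06% of all genes. No member lay above Control without overlap, against 5.61%. LDL was lower at every replicate number for 10 members (17.5% of all genes) and higher at every number for 4, Col18a1, Col27a1, Col4a1 and Col4a2 (17.9%).

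The mean of Col2a1 was 7.08 ± 1.66 TPM in Control and 3.39 ± 1.12 TPM after LDL (SD, n = 3), a 2.09-fold lower mean. The log2 difference was -0.90 (95% CI -1.64 to -0.15; limma's adjusted p = 0.586). With the block the interval was -1.30 to -0.49 and the adjusted p 0.0746. Col15a1 averaged 42.6 ± 28.6 TPM against 80.3 ± 42.6 TPM (SD, n = 3), a log2 difference of -0.93 (95% CI -2.10 to 0.25). Its adjusted p was 0.91, and 0.106 with the block, where the interval was -1.40 to -0.45. Without Control library 1 the Col15a1 difference was -0.55, and without LDL library 1 it was -1.42. These were the largest differences of any member in this comparison, and neither passed.

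Col6a1 differed by -0.24 (95% CI -0.43 to -0.05; adjusted p = 0.531) and Col6a2 by -0.24 (95% CI -0.44 to -0.03; adjusted p = 0.613) on the log2 scale. Col8a1 differed by -0.40 (95% CI -0.78 to -0.03; adjusted p = 0.668), and Col16a1, named after its values were seen, by -0.28 (adjusted p = 0.599). With the block limma's adjusted p was 0.222, 0.259, 0.203 and 0.128 for Col6a1, Col6a2, Col8a1 and Col16a1. Smooth muscle markers moved in the same direction as these genes: the 6 summed to 1504 to 1745 TPM in Control, 1057 to 1333 TPM with LDL and 1470 to 1524 TPM with oxLDL. Acta2 and Tagln, which activated VICs also express, gave most of that sum, and none of the 6 was at 0 in all libraries. Their part in the collagen values was not tested.

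The abundant fibrillar chains differed by little. The log2 difference was -0.04 (95% CI -0.32 to 0.24) for Col1a1, -0.13 (95% CI -0.41 to 0.15) for Col1a2, -0.01 (95% CI -0.44 to 0.41) for Col3a1 and -0.05 (95% CI -0.33 to 0.23) for Col5a2. Col4a1 and Col4a2 had higher means with LDL, by 0.30 (95% CI -0.30 to 0.89) and 0.26 (95% CI -0.23 to 0.75). With the block the intervals were 0.11 to 0.48 and 0.11 to 0.41, and the adjusted p 0.164 and 0.137. Without Control library 2 the differences were 0.057 and 0.067, and without Control library 1 they were 0.53 and 0.46. Over the 29 members the median half-width of the 95% interval was 0.41 on the log2 scale.

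**Figure D2:**
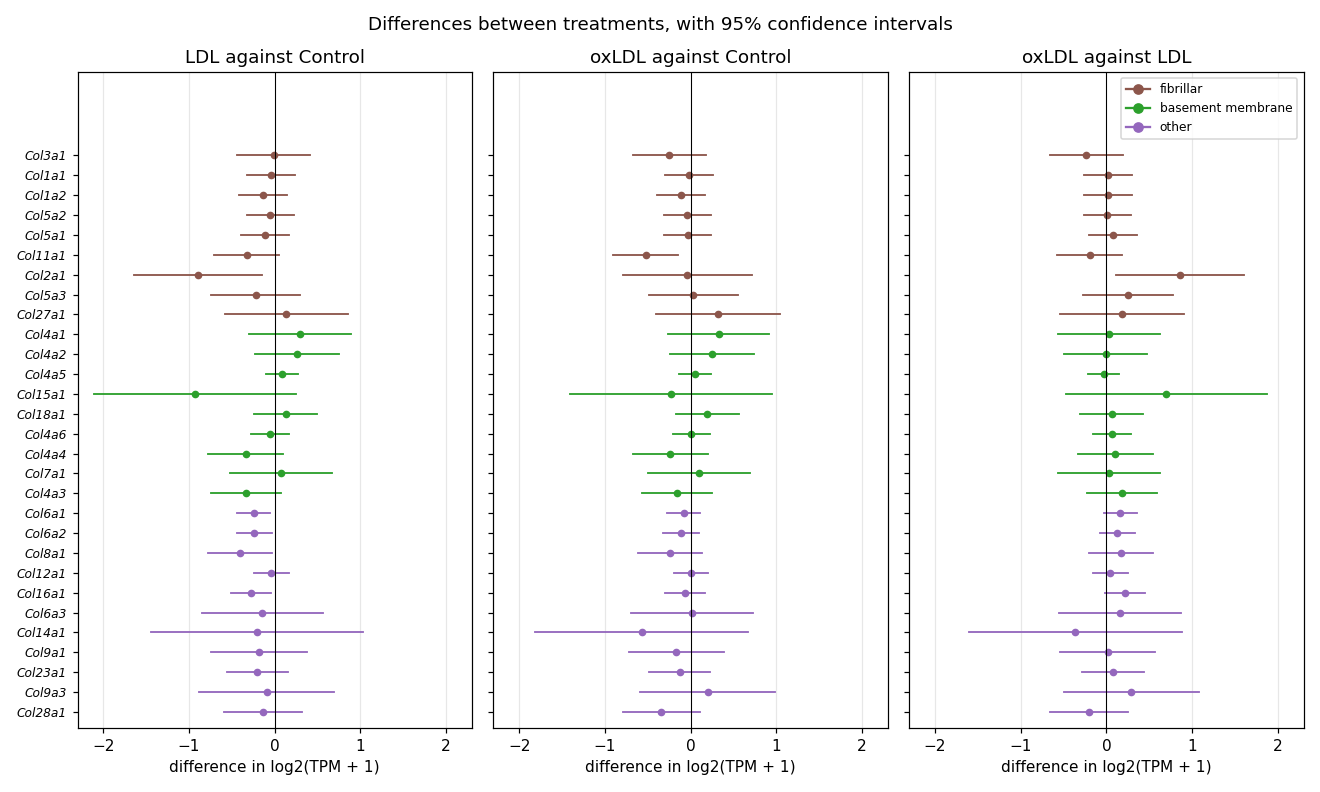
Difference in log2(TPM + 1) of each of the 29 tested members in the 3 comparisons, with 95% confidence intervals from limma; colour gives the class. For LDL against Control all 11 other collagens lie left of 0, and the intervals of Col2a1, Col6a1, Col6a2, Col8a1 and Col16a1 exclude 0 before adjustment over all genes.

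The comparison of oxLDL with Control, which uses the same Control libraries, asked the same of the oxidised lipoprotein. Again 0 of 29 members passed, with or without the block, where 0.0148% of all genes passed without it and 0.126% with it. At an unadjusted p under 0.05 limma gave 1 member, Col11a1, against 3.86% of all genes, and 4 with the block, Col11a1, Col14a1, Col4a1 and Col4a2, against 9.08%. The mean was lower in 18 members and higher in 11, with a median log2 difference of -0.04, and lower in 50.9 and higher in 49% of all genes. That median was 0.053 without Control library 1 and 0.013 without oxLDL library 2. No member was separated from Control without overlap in either direction, against 3.5% of all genes higher and 3.83% lower.

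Col11a1 averaged 14.5 ± 2.12 TPM with oxLDL against 21.5 ± 4.97 TPM in Control (SD, n = 3). The log2 difference was -0.52 (95% CI -0.90 to -0.14), with an adjusted p of 1, and of 0.298 with the block. Col14a1 differed by -0.57 (95% CI -1.81 to 0.67), with an adjusted p of 1 and of 0.432 with the block. Single libraries set the size of that difference, which was -0.11 without oxLDL library 2, -0.13 without Control library 1 and -1.05 without Control library 2. Col11a1, Col14a1 and Col4a3 were lower with oxLDL at every number (14% of all genes). Col18a1, Col4a1 and Col4a2 were higher at every number (13.1% of all genes).

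Col4a1 differed by 0.33 (95% CI -0.27 to 0.92) and Col4a2 by 0.25 (95% CI -0.24 to 0.74) on the log2 scale. Their adjusted p was 1 for both. With the block the intervals were 0.14 to 0.51 and 0.10 to 0.40, and the adjusted p 0.307 and 0.348. Without Control library 2 the differences were 0.088 and 0.057. Among the fibre-forming chains the difference was -0.02 (95% CI -0.30 to 0.26) for Col1a1, -0.11 (95% CI -0.39 to 0.17) for Col1a2 and -0.25 (95% CI -0.67 to 0.18) for Col3a1. Col2a1 differed by -0.04 (95% CI -0.78 to 0.71).

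Setting oxLDL against LDL asked whether oxidation itself mattered. No member passed in limma, with or without the block, where 0.104% of all genes passed without it and 0.259% with it. Col2a1 was the 1 member at an unadjusted p under 0.05, against 3.91% of all genes. With the block Col15a1 and Col16a1 joined it, against 8.51%. The mean was higher with oxLDL in 23 of 29 members and lower in 6, against 50.3 and 49.6% of all genes, and the median log2 difference was 0.06, or 0.0030 without oxLDL library 3. Col16a1, Col2a1 and Col6a1 lay above LDL without overlap, 3 of 29 against 4.11% of all genes, and none lay below, against 4.2%. These counts use the LDL libraries that the first comparison used and are not separate support for it.

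Col2a1 differed by 0.86 on the log2 scale (95% CI 0.11 to 1.61; limma's adjusted p = 1, and 0.159 with the block), with a 2.17-fold higher mean with oxLDL. Col15a1 differed by 0.70 (95% CI -0.48 to 1.88) and was higher at every number, with an adjusted p of 1. With the block the interval was 0.22 to 1.18 and the adjusted p 0.338, and without LDL library 2 the difference was 0.36. Col6a1 differed by 0.16 (95% CI -0.03 to 0.35). Between the lipoproteins Col1a1 differed by 0.02 (95% CI -0.26 to 0.30) and Col3a1 by -0.24 (95% CI -0.66 to 0.19).

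The collagen members were also compared between replicate numbers. The labels do not say what a shared number stands for. In the log2 values of a member, a median of 38.5% of the squared spread lay between numbers and 17.1% between treatments. The number held the larger share in 17 of 29 members. Over all genes tested the shares were 44.2 and 16.9%, with the number larger in 69.7% of genes, so this split was not particular to collagens.

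A limma F test of the number beside treatment, added after the data had been seen, passed for 6 of 29 members, against 11.7% of all genes. They were Col6a3 (adjusted p = 0.00522), Col4a1 (0.00769), Col4a2 (0.00792), Col14a1 (0.0105), Col15a1 (0.0166) and Col2a1 (0.0426). Single libraries bore on this count. Without Control library 1 only Col6a3 passed, without LDL library 1 or oxLDL library 1 the count was 3, and without oxLDL library 3 it was 10. Col6a3 passed in all 9 fits that left out 1 library and Col4a1 in 8. In the same fit the F test of treatment passed for 0 of 29 members, against 0.667% of all genes.

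Col6a3, named here after its values were seen, was at 69.9, 47.8 and 87.0 TPM in Control libraries 1 to 3, at 55.8, 46.2 and 83.7 TPM with LDL and at 61.3, 49.2 and 100.1 TPM with oxLDL. Number 3 was the highest and number 2 the lowest under each treatment, and the number held 93.1% of the gene's spread. Col4a1 followed another order, with 451 to 528 TPM at number 1, 232 to 347 TPM at number 2 and 324 to 379 TPM at number 3. Col14a1 held 17.5 to 29.3 TPM at number 1, 4.79 to 9.60 TPM at number 2 and 10.4 to 16.1 TPM at number 3.

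Libraries numbered 1 were all above the other 6 for Col14a1, Col1a1, Col1a2, Col4a1 and Col4a2, 5 of 29 members against 6.98% of all genes. Those numbered 2 were all below the others for Col14a1, Col18a1, Col27a1 and Col6a3, 4 of 29 against 3.76%. Number 3 was above all others for Col6a3 (6.26% of all genes) and below them for Col4a6 (1.84%). No member had number 1 below all others (13.2% of all genes) or number 2 above all others (1.92%).

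Summed markers of several other cells moved with the number as well, and other sums overlapped. The 8 endothelial markers, with none at 0, summed to 290 to 326 TPM at number 1, 127 to 133 TPM at number 2 and 144 to 197 TPM at number 3. The 8 macrophage and leukocyte markers, again with none at 0, summed to 447 to 667 TPM, 97.5 to 221 TPM and 420 to 667 TPM at numbers 1, 2 and 3. Among them Lyz2 averaged 338 TPM. In limma's F test of the number, Tek, Vwf and Cldn5 of the endothelial markers did not pass (adjusted p = 0.109, 0.396 and 0.73). Nor did Adgre1, Cd14 and Aif1 of the macrophage and leukocyte markers (adjusted p = 0.052, 0.562 and 0.261). Cardiomyocyte markers summed to 33.9 to 64.1 TPM at number 1 and 9.89 to 24.0 TPM at the other numbers, and the only one of the 6 with a mean of at least 1 TPM was Tnnt2. Schwann cell markers summed to 27.8 to 31.8 TPM, 19.4 to 22.7 TPM and 25.3 to 27.1 TPM at numbers 1, 2 and 3. Smooth muscle sums overlapped between all numbers, at 1262 to 1504 TPM, 1333 to 1745 TPM and 1057 to 1591 TPM. Chondrocyte sums did so too, at 60.6 to 88.2 TPM, 62.6 to 76.2 TPM and 75.95 to 77.9 TPM. Melanocyte and epithelial sums overlapped between numbers in part. The valve interstitial or fibroblast markers themselves summed to 19750.4 to 20606 TPM at number 1 and 17194 to 19488 TPM at the others. Of these Postn, Thy1 and Fn1 passed limma's F test of the number. Vim, Pdgfra, Pdgfrb, Dcn, Lum, S100a4 and Prrx1 did not pass that F test (adjusted p = 0.0604 to 0.875). Endothelial cells also make type IV collagen. The part of these cells in the collagen values was not tested. By treatment the endothelial sums overlapped, at 127 to 290 TPM in Control, 133 to 326 TPM with LDL and 129 to 308 TPM with oxLDL.

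**Figure D3:**
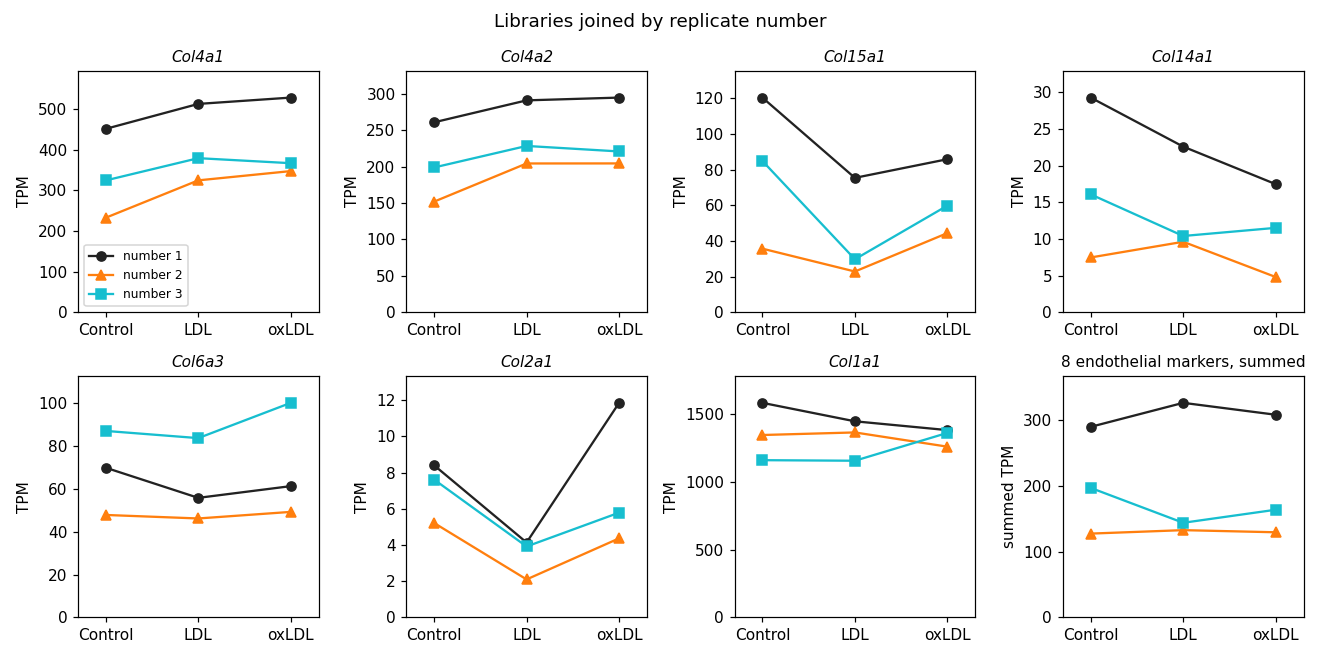
TPM of 7 collagen members and the summed TPM of 8 endothelial markers by treatment, with lines joining libraries of the same replicate number; each axis starts at 0. Number 1 is the highest line for the endothelial markers and for every collagen shown except Col6a3, where number 3 is the highest.

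Ratios of TPM between chains of one molecule were narrow for some pairs and wide for others. Col1a1 to Col1a2, whose products join at a ratio of 2 to 1 in type I collagen, stood between 1.005 and 1.2 in the 9 libraries. Col4a1 to Col4a2, likewise 2 to 1 in the protein, ran from 1.53 to 1.79, while Col4a1 itself spanned 2.27-fold. Col6a1 to Col6a2 ran from 1.16 to 1.24, but Col6a1 to Col6a3, the third chain of the same molecule, from 2.99 to 6.65. In the last ratio number 3 was lowest (2.99 to 3.62), number 1 intermediate (4.18 to 4.74) and number 2 highest (5.67 to 6.65).

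Other pairs differed in how steady they were. Col5a2 to Col5a1 ran from 3.50 to 4.38, and Col4a5 to Col4a6, neighbours on chromosome X, from 6.61 to 7.87. Col4a3 to Col4a4, head to head but close to the filter on low values, ran from 0.606 to 1.07. Col3a1 to Col1a1, chains of different molecules that share fibrils, was 1.06 ± 0.0987 in Control and 1.08 ± 0.085 with LDL (SD, n = 3). With oxLDL it was 0.79, 0.74 and 1.26. The range of every ratio is a description of these 9 libraries.

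**Figure D4:**
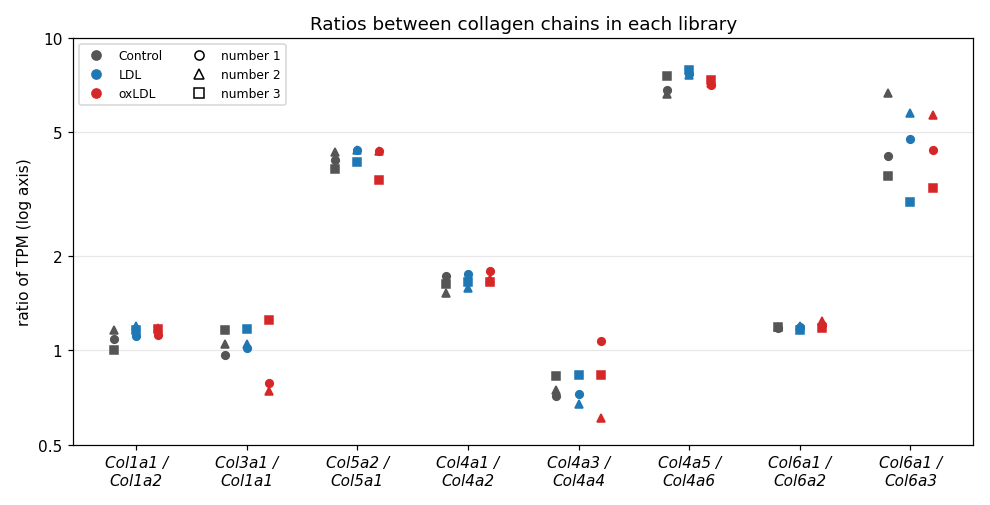
Ratio of TPM between pairs of collagen chains in each of the 9 libraries (log axis), coloured by treatment with the shape giving the replicate number. Col6a1 to Col6a2 is the tightest pair, and Col6a1 to Col6a3 separates by number.

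The genes that modify, secrete, process, crosslink, bind and degrade collagen were read from a list of 63, of which 62 were in the table and 56 passed the filter on low values. In limma 0 of the 56 rose and 0 fell in any of the 3 comparisons, and the block gave 0 too. At an unadjusted p under 0.05 5 genes were found with LDL set against Control, 0 with oxLDL set against Control and 5 between the lipoproteins, beside 6.65, 3.86 and 3.91% of all genes. The median log2 difference was 0.06, -0.02 and -0.06 in that order, beside -0.0018, -0.0028 and 0.00087 over all genes. Means were higher in 36, 21 and 14 of the 56, beside 49.4, 49 and 50.3% of all genes.

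Among the modifying enzymes P4hb, a subunit of prolyl 4-hydroxylase, averaged 825 TPM. Sparc, a matrix protein that binds procollagen, averaged 2825 TPM. Serpinh1, the collagen chaperone HSP47 named after its level was seen, averaged 1681 TPM. Pcolce, which enhances removal of the C-propeptide, averaged 702 TPM, and Lox, the lysyl oxidase that starts crosslinking, 494 TPM. Itgb1, the beta subunit of the collagen-binding integrins, averaged 655 TPM, and Mmp2, a gelatinase, 359.5 TPM. Differences between replicate numbers passed the F test in 13 of the 56 (23.2%), 5 of 9 breakdown genes among them, beside 11.7% of all genes and 6 of 29 collagen chains.

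Exonic bases of 13 of the 44 members overlap another annotated gene, by at most 6.07% of the exonic length (Col9a3, with Tcfl5) and 5.65% (Col4a3, with C430014B12Rik). The library kit does not mark strand, so strand could not help to assign reads in those bases to one gene or the other. How such reads were divided was not tested. For Col4a1 and Col4a2 the shared stretch of 22 bases is the one printed above.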

How the data were processed

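RNA was sequenced as 100 bp pairs from amplified cDNA made from 50 ng of total RNA, per the labels' protocols, in libraries that carry no strand mark. The authors deposited TPM values, and the submitters' processing notes name STAR (no version), RSEM 1.3.1 and build mm10. Their annotation was not given in the sources used here. Each of the 9 columns summed to 999998.81 to 1000000.43, and 0 columns were left out. A value of 0 can stand for an estimate that failed.

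The analysis scale was log2(TPM + 1), on which differences of low genes come out too small, and 38315 genes averaging under 1 TPM were left out, so that 13495 were tested. limma 3.58.1 under R 4.3.3 fitted all 9 libraries at once (lmFit, contrasts.fit, and eBayes with trend) and gave two-sided tests with 6 residual degrees of freedom. P-values were Benjamini-Hochberg adjusted over all genes tested, with 0.05 as the threshold, and the fit was tested on simulated data. No permutation test was run, as 3 against 3 libraries allow no p under 0.1.

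Correlations of deviations from the treatment means were 0.172 to 0.497 for the 9 same-number pairs and -0.309 to 0.13 for the 18 other pairs. Libraries given the same number in their titles therefore varied together, and the number was used as a block. What the libraries of a number share is not stated in the labels. The block left 4 residual degrees of freedom.

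The members and lists were chosen with earlier results of these data known. Per-library values are given for the 4 members with the highest mean in each class and the 2 with the largest difference in each comparison. Further members, and a few genes of the pathway list, were named after their values were seen. Positions and exons (longest coding transcript per gene) came from GENCODE M21, and marker lists for melanocytes, cardiomyocytes and Schwann cells were also summed. Alternatives changed the pseudocount, the filter, the scaling, the libraries and the block.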

Additional observations from a re-analysis of the deposited data

How the results depend on the processing

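In every alternative, and without the 3 libraries numbered 1 (added after seeing the data), 0 collagen members passed by treatment, and the smallest adjusted p of limma over all of these fits was 0.0746. Of 720 alternatives for 45 differences of named members, 681 kept direction and call and 39 turned the direction, all by leaving out 1 library. The cause of these turns was not tested. Many of the alternatives that kept the direction could not have turned it. Another filter, the block, a fit of only the groups compared, and leaving out a library of the group not compared leave each difference unchanged by design. Numbers of all genes passing for LDL against Control were 45, and 19 without a filter, 115 with the replicate block, 20 with only the groups compared, 16 without the libraries numbered 1 and 4 (without LDL library 2) to 38 when 1 library was left out. For oxLDL against Control they were 2, and 1 with a pseudocount of 5, 10 without a filter, 17 with the block, 1 with only the groups compared and 1 to 3 when 1 library was left out. For oxLDL against LDL they were 14, and 8, 35, 7, 6 and 1 (without oxLDL library 2) to 13 in the order of the first comparison. The block changed no call of a member.

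Leaving out each library gave median collagen differences of -0.19 to -0.02, -0.13 to 0.05 and 0.00 to 0.16 (log2) in the 3 comparisons, and differences of the collagen sum of -593 to 158, -592 to 142 and -299 to 351 TPM around -293, -309 and -15.9 TPM. For LDL against Control the log2 ranges of members that turned were -0.096 to 0.0040 (Col12a1), -0.68 to 0.24 (Col14a1), -0.15 to 0.075 (Col1a1), -0.053 to 0.039 (Col3a1) and -0.12 to 0.064 (Col5a2). For oxLDL against Control they were -0.051 to 0.086 (Col12a1), -0.72 to 0.15 (Col15a1), -0.13 to 0.094 (Col1a1), -0.40 to 0.23 (Col2a1), -0.016 to 0.12 (Col4a5) and -0.11 to 0.075 (Col5a2). For oxLDL against LDL they were -0.015 to 0.12 (Col12a1), -0.74 to 0.10 (Col14a1), -0.076 to 0.086 (Col1a1), -0.075 to 0.12 (Col1a2), -0.16 to 0.21 (Col4a1), -0.17 to 0.13 (Col4a2), -0.073 to 0.00046 (Col4a5) and -0.10 to 0.073 (Col5a2).

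Members differing between replicate numbers were 4 to 8 with another pseudocount, filter or scaling and 1 to 10 when 1 library was left out. All genes differing were 501 without a filter and 151 (without Control library 1) to 2028 (without oxLDL library 3) when 1 library was left out. Depth is unknown, 3 libraries a group limit the precision, and the replicate numbers are not explained in the labels.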

Other observations

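Col25a1 was listed at 0 in 1 library, Col6a5 in 2, Col19a1 in 5 and Col26a1 in 6, and the other members were above 0 in all 9. Markers of melanocytes summed to 5.5 to 22.2 TPM per library. Epithelial markers summed to 3.55 to 11.7 TPM, mostly Krt18 at a mean of 6.68 TPM.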
